A study of Mus musculus with 6 samples.

Results

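The Dectin-1 lectin cluster is a group of genes for C-type lectin receptors that lie side by side in the natural killer gene complex of mouse chromosome 6. The members are 10 genes taken by name, of 55401 in the deposited table: Clec7a, Clec1a, Clec1b, Clec12a, Clec12b, Clec9a, Olr1, Clec2d, Cd69 and Klrb1b. Clec7a was picked because it separated the genotypes in these libraries, and the others because they belong to the same family and neighbourhood. The genotype values of all 10 are therefore a description. Fold changes, intervals and calls from the fits over all genes are printed for their size and error, and are not evidence that the members differ.

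RNA was sequenced from spinal cord microglia, the resident macrophages of nervous tissue, isolated from untreated 7-month-old mice with beads that bind CD11b, an integrin of myeloid cells. Controls were non-transgenic C57BL/6 mice (NTg). The other group, ATXN2-Q33;TDP-43, was heterozygous for 2 human genes: ATXN2 with a tract of 33 glutamines, inserted as a knock-in per the labels, and TDP-43. These animals are called double mutants here. Both human genes code for RNA-binding proteins linked to amyotrophic lateral sclerosis. The promoter of the TDP-43 allele is not given in the sources used here, and the controls carry neither allele. Each group had 3 libraries, each from a pool of 3 spinal cords, so 9 animals stand behind a group and the spread between animals cannot be seen. Libraries are called by the number in their titles, which is odd for NTg (replicates 7, 9 and 11) and even for the double mutants (replicates 8, 10 and 12).

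Library totals lay between 12553570 and 22854628 counts. All 10 markers of microglia passed the filter on low counts, and they summed to between 10887 and 15869 CPM (counts scaled to a common library size). Markers of other cells were also present. Neutrophil markers summed to between 60.5 and 1768 CPM, endothelial markers to between 113 and 402 CPM, and markers of natural killer cells to between 4.11 and 10.2 CPM. Oligodendrocyte markers summed to between 168 and 1649 CPM, and markers of border macrophages to between 414 and 506 CPM. Fold changes were positive for all 12 neutrophil, all 10 monocyte and all 8 tested ependymal markers and negative for all 4 tested B cell markers, while the summed levels of each of these lists overlapped between the groups. In bulk RNA, fewer cells of a type and less RNA per cell cannot be told apart.

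C-type lectin receptors are single-pass membrane proteins with an extracellular lectin-like domain, and several of this cluster signal, or block signals, through short tyrosine motifs in their tails. Clec7a codes for Dectin-1, which binds beta-glucans of fungal walls and signals through the kinase Syk and the adaptor Card9. In microglia Clec7a is known as a gene that is low at rest and induced around plaques and dying cells. Its neighbours are best known from other cells: Clec1b from platelets, Clec9a from dendritic cells, Clec1a and Olr1 from endothelium, Clec12a from neutrophils and monocytes, and Klrb1b from natural killer cells.

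In the order of their starts on mm10 chromosome 6, the members run Klrb1b, Clec2d, Cd69, Clec12a, Clec12b, Clec1b, Clec9a, Clec1a, Clec7a and Olr1, over 693 kb from 128813706 to 129507165. The last 7, from Clec12a to Olr1, form the compact Dectin-1 group of 164 kb. Clec7a (ENSMUSG00000079293) spans 129461591 to 129472779 on the minus strand. GENCODE vM21 types the gene as a polymorphic pseudogene, a class for genes that are disabled in some strains and intact in others, and types the other 9 as protein coding. Clec1b (129397297 to 129409335) and Clec9a (129408862 to 129424763) overlap on the plus strand and share 184 exonic bases, so a fragment there was counted for both. Klrb1b shares 599 exonic bases with Gm44511, or 26.9% of its exons, and its counts are uncertain for that reason. Of the 50-base words in the Clec7a transcripts, 0% occurred in a transcript of another gene, and the share was at most 4.02% for the members other than Klrb1b, at 27.2%.

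Promoter windows from RefSeq (GRCm38.p6, 250 bases before to 50 after the start) were found for 8 members; Cd69 and Clec1a had none. The windows of 4 members are shown because they cover the range of levels: Clec7a, the most abundant member, Olr1, of middling level, Clec12a, with a positive genotype difference, and Clec12b, without a single count. Capitals mark GAGGAA or its reverse complement TTCCTC, the core letters of the binding motif of PU.1, the master regulator of myeloid cells. The windows lie at chr6:129472730-129473029 on the minus strand (Clec7a, the first of 2 listed starts), chr6:129507116-129507415 on the minus strand (Olr1), chr6:129349994-129350293 on the plus strand (Clec12a) and chr6:129385454-129385753 on the minus strand (Clec12b).
Clec7a: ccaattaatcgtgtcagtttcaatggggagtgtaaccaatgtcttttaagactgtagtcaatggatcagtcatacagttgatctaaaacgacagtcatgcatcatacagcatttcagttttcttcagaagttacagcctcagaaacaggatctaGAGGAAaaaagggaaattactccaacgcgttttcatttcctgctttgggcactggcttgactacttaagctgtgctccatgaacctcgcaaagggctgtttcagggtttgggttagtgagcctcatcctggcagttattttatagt
Olr1: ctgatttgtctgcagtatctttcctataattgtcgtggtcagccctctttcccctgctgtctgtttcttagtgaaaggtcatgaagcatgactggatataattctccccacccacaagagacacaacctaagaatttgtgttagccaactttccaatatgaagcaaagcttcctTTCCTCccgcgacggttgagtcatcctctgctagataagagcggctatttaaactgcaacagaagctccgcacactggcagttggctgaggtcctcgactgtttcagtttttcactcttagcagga
Clec12a: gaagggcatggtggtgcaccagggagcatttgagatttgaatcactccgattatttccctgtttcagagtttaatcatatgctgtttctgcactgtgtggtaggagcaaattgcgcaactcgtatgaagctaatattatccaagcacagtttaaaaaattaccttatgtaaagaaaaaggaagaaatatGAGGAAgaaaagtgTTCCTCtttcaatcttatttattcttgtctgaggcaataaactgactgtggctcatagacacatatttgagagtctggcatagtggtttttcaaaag
Clec12b: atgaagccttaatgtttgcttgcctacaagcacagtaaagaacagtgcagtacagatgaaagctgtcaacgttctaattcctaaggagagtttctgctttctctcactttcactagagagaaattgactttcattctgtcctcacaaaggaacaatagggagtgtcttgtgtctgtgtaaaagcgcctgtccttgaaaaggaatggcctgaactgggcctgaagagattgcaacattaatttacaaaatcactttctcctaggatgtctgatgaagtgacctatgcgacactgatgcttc
The letters were present 96 bases before the start in Clec7a, 76 before it in Olr1, and 61 and 47 before it in Clec12a, on both strands there. They were absent from the window of Clec12b. Across the members, 4 of 8 had them in a window (Klrb1b, of low level, being the other). Counted by window, 6 of the members' 10 had them, and 28.3% of all 32851 promoter windows do. Clec7a and Klrb1b each entered with 2 nearly identical windows. Clec2d, second in level per length in NTg, had none in its window, nor did Clec1b and Clec9a. The windows shown thus do not tell whether the letters go with the level. The letters of 3 further motifs were searched on both strands. TTGCNNAA, of C/EBP factors, was found in Clec12a alone (10.8% of all windows), TGANTCA, of AP-1, in Clec12a and Olr1 (7.81%), and a pair of half-sites of the interferon-stimulated response element in Clec2d alone (3.44%). A match of letters is a description of the window and not a binding site.

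Clec7a had the highest level per length in NTg libraries, 65.2 ± 5.04 CPM per kilobase of exon (SD, n = 3), and ranked 822nd of the 16248 tested genes over the 6 libraries. Clec2d, the ligand that the inhibitory natural killer receptor Klrb1b binds, came next at 40.3 ± 3.07 CPM per kb, and then Olr1, the scavenger receptor LOX-1 for oxidised lipoprotein, at 6.94 ± 1.07. Cd69, an early activation antigen that holds lymphocytes in tissue by pulling down the receptor S1pr1, stood at 2.20 ± 0.15 CPM per kb. In NTg the ranges of these neighbours in the order did not overlap. Below them the order was not resolved: Clec12a (1.06 ± 0.25), Clec1a (0.80 ± 0.04), Klrb1b (0.65 ± 0.39), Clec1b (0.35 ± 0.15) and Clec9a (0.29 ± 0.14 CPM per kb) each overlapped the next. In the double mutants Clec7a (36.7 ± 3.02 CPM per kb, SD, n = 3) and Clec2d (35.2 ± 5.53) overlapped each other, as did Cd69 (1.86 ± 0.30) and Clec12a (1.63 ± 0.64).

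**Figure D1:**
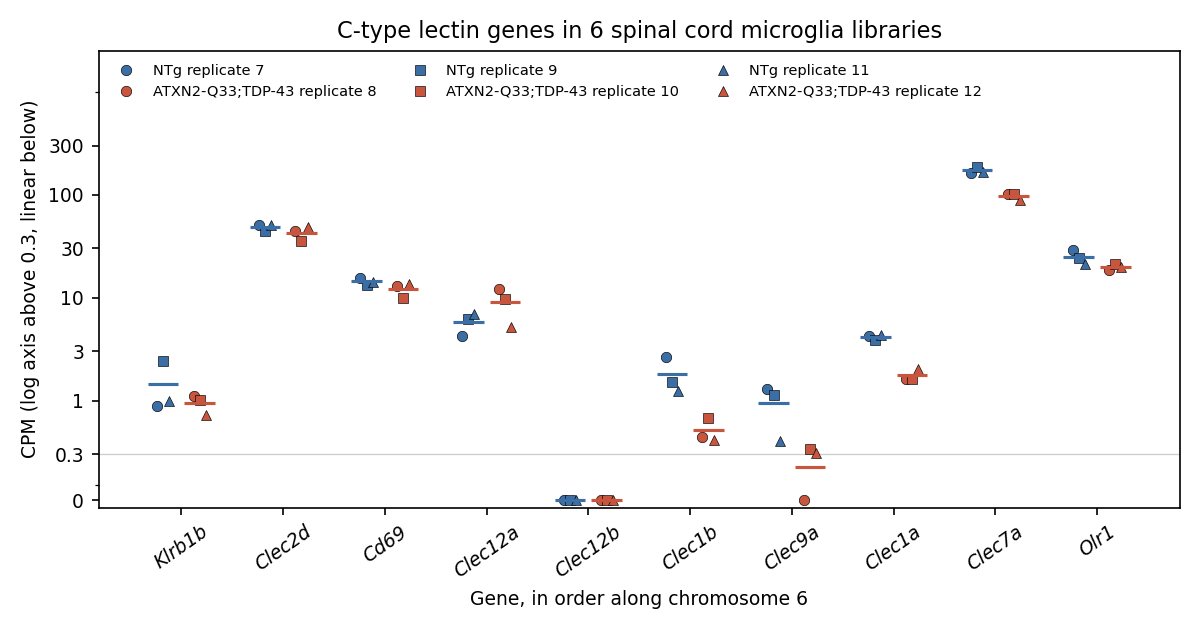
CPM of the 10 members in each of the 6 libraries, with genes in chromosome order on the x axis; symbols are single libraries, short bars are group means, and the y axis is logarithmic above 0.3 CPM and linear below. Clec7a stands highest in all libraries, and the groups are apart for Clec1b, Clec9a, Clec1a, Clec7a and Olr1.

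In NTg replicates 7, 9 and 11, the level of Clec7a was 161, 187 and 168 CPM. The double mutant replicates 8, 10 and 12 had 101, 102 and 87.7 CPM. Every double mutant library was below every NTg library, and the gap between the groups was wider than the range inside either. The means of 172 ± 13.3 and 96.9 ± 7.95 CPM (SD, n = 3 each) were 1.77 times apart, a log2 fold change, double mutant over NTg, of -0.83 (SE 0.10, 95% interval -1.05 to -0.61). Within libraries, the ratio of Clec7a to Clec2d counts, which needs no scaling between libraries, was 3.17, 4.19 and 3.28 in NTg and 2.25, 2.90 and 1.82 in the double mutants, again without overlap. The ratio to Olr1 was 5.57, 7.77 and 7.85 against 5.42, 4.86 and 4.43, with only a small gap between the groups. Markers of microglia summed to 13526, 12132 and 15457 CPM in NTg, against 13403, 10887 and 15869 CPM in the double mutants, with overlap. The part of microglial content in the Clec7a values was not tested.

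The header calls the alignment files behind NTg replicates 7 and 9 combined and those of the other 4 libraries not, a difference that touches NTg only. With it as a covariate, where NTg rests on replicate 11, the log2 fold change of Clec7a was -0.79 (SE 0.14). Over the fits that left out a single library it lay between -0.87 and -0.76.

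The lectins next to Clec7a on the side of Clec1a had lower values in the double mutants too, at far lower levels. Clec1a, the receptor MelLec for fungal melanin, had 52, 59 and 95 counts in NTg (4.19, 3.89 and 4.31 CPM). Its counts in the double mutants were 22, 24 and 39 (1.63, 1.63 and 2.03 CPM). The groups were widely apart, and the log2 fold change was -1.22 (SE 0.30, 95% interval -1.90 to -0.55), with -1.29 under the covariate for combined alignments. Endothelial markers, genes of the cells Clec1a is best known from, summed to 114, 383 and 163 CPM in NTg, against 204, 402 and 113 CPM in the double mutants. These sums, over 10 markers that were all tested, were highest in NTg replicate 9 and ATXN2-Q33;TDP-43 replicate 10 and overlapped between the groups. The part of endothelial RNA in the Clec1a values was not tested.

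Clec1b codes for CLEC-2, the platelet receptor of podoplanin. It had 33, 23 and 27 counts in NTg replicates 7, 9 and 11 and 6, 10 and 8 in the double mutants, or 1.80 ± 0.76 and 0.51 ± 0.14 CPM (SD, n = 3 each). The groups did not overlap, and the log2 fold change was -1.80 (SE 0.52, 95% interval -2.98 to -0.62). Its size rested in part on NTg replicate 7, without which it was -1.42; with the covariate it was -1.26 (SE 0.69). The gene passed the filter on low counts through NTg, where 3 libraries reached the minimum of 0.70 CPM against 1 in the double mutants, so a level in NTg as low as that in the double mutants would have left it untested. Platelet markers summed to 27.2, 21.9 and 27.0 CPM in NTg, against 23.0, 21.9 and 19.0 CPM in the double mutants, so NTg replicate 9 lay among the double mutants. Among them Ppbp, a chemokine that defines the lineage, was at 0 in all libraries. Tubb1, the platelet beta tubulin, had 9.74, 6.13 and 7.99 CPM in NTg, against 3.12, 3.39 and 4.05 CPM in the double mutants, apart in the same direction as Clec1b. Of the 6 tested platelet markers 2 had positive log2 fold changes, Gp1bb at 1.42 (SE 0.62) and Itga2b at 0.46 (SE 0.34), while Pf4 was at -0.11 (SE 0.21), each with overlapping libraries. The part of platelet RNA in the Clec1b values was not tested. Podoplanin itself, Pdpn, had 1 to 17 counts per library and was not tested.

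Clec9a, which codes for DNGR-1, a receptor of dendritic cells for the actin of dead cells, was too low to be tested. It had 16, 17 and 9 counts in NTg and 0, 5 and 6 in the double mutants, and 11 counts in 3 libraries do not allow a firm fold change. Without a filter its log2 fold change was -2.05 (SE 0.87). The groups lay apart by a narrow gap, 0.41 CPM in NTg replicate 11 against 0.34 CPM in ATXN2-Q33;TDP-43 replicate 10. Dendritic cell markers summed to between 33.2 and 36.8 CPM in NTg and between 31.0 and 37.9 CPM in the double mutants. Xcr1, which marks the dendritic cells that carry Clec9a, had 2 to 8 counts per library. Because Clec9a and Clec1b share exonic bases, some of their counts may be the same fragments.

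On the far side of Clec7a, Olr1 had levels of 28.9, 24.0 and 21.4 CPM in NTg, against 18.6, 20.97 and 19.8 CPM in the double mutants. NTg replicate 11 was only slightly above the highest double mutant, and the log2 fold change was -0.32 (SE 0.14, 95% interval -0.64 to -0.0045). It was -0.20 without NTg replicate 7 and -0.11 (SE 0.18) with the covariate for combined alignments. The difference at Olr1 was thus smaller than that at Clec7a next to it and moved more with single NTg libraries.

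Clec12a and Clec12b, inhibitory receptors whose tails carry motifs that recruit the phosphatases Ptpn6 and Ptpn11, sit at the other end of the compact group. Clec12a, which binds uric acid crystals of dead cells, was the only tested member with a positive fold change. Its level was 4.27, 6.26 and 6.99 CPM in NTg, while the double mutants had 12.1, 9.77 and 5.14 CPM. Replicates 8 and 10 were above all NTg libraries and replicate 12 was among them, so the groups overlapped. The fitted value was 0.61 (log2 fold change, SE 0.33, 95% interval -0.14 to 1.36), with 0.35 without replicate 8, 0.90 without replicate 12 and 0.36 with the covariate for combined alignments. Neutrophil markers summed to 671, 182 and 425 CPM in NTg, against 1768, 1140 and 60.5 CPM in the double mutants, with all 12 markers tested, so replicates 8 and 10 were the highest for these as for Clec12a. Replicate 12 was the lowest of all 6 for the neutrophil sum and the lowest double mutant for Clec12a. Within the NTg libraries the order was not shared: Clec12a was lowest in replicate 7, where the neutrophil sum was highest of the 3. Monocyte markers, the other myeloid list, summed to 726, 784 and 914 CPM in NTg, against 905, 910 and 875 CPM in the double mutants, but Nr4a1, a gene that microglia also express, made up most of each sum. The other 9 summed to 121, 129 and 131 CPM in NTg, and to 273, 259 and 63.8 CPM in double mutant replicates 8, 10 and 12, a sum taken after the values were seen. Here too replicates 8 and 10 were highest and replicate 12 lowest. The part of neutrophils and monocytes in the Clec12a values was not tested. Clec12b had 0 counts in all 6 libraries, which allows up to 0.24 CPM in the smallest library and 0.14 CPM in the largest, for counting error only.

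The members outside the compact group showed smaller or unclear differences. Clec2d stood at 50.8, 44.5 and 51.2 CPM in NTg; the double mutants, at 44.8, 35.2 and 48.1 CPM, overlapped them (log2 fold change -0.19, SE 0.13, 95% interval -0.48 to 0.10). Cd69 stood at 15.4, 13.4 and 14.3 CPM in NTg and overlapped at 12.9, 9.84 and 13.5 CPM in the double mutants (log2 fold change -0.25, SE 0.17, 95% interval -0.63 to 0.13). For both genes ATXN2-Q33;TDP-43 replicate 10 was the lowest library, and without it the values were -0.07 and -0.12. Klrb1b, the inhibitory partner of Clec2d, had 11, 37 and 22 counts in NTg and 15, 15 and 14 in the double mutants. NTg replicate 9 stood high, and the log2 fold change of -0.60 (SE 0.54) became 6.76e-05 without it and -0.08 with the covariate for combined alignments. Natural killer cell markers summed to 4.11, 8.10 and 5.22 CPM in NTg, against 10.2, 8.82 and 4.52 CPM in the double mutants. Among NTg libraries they were highest in replicate 9, as Klrb1b was. Over all libraries they were highest in replicates 8 and 10, where Klrb1b had 1.11 and 1.02 CPM, against 2.44 CPM in replicate 9. Of these 10 markers 2 were tested, and the part of natural killer cells in the Klrb1b values was not tested.

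**Figure D2:**
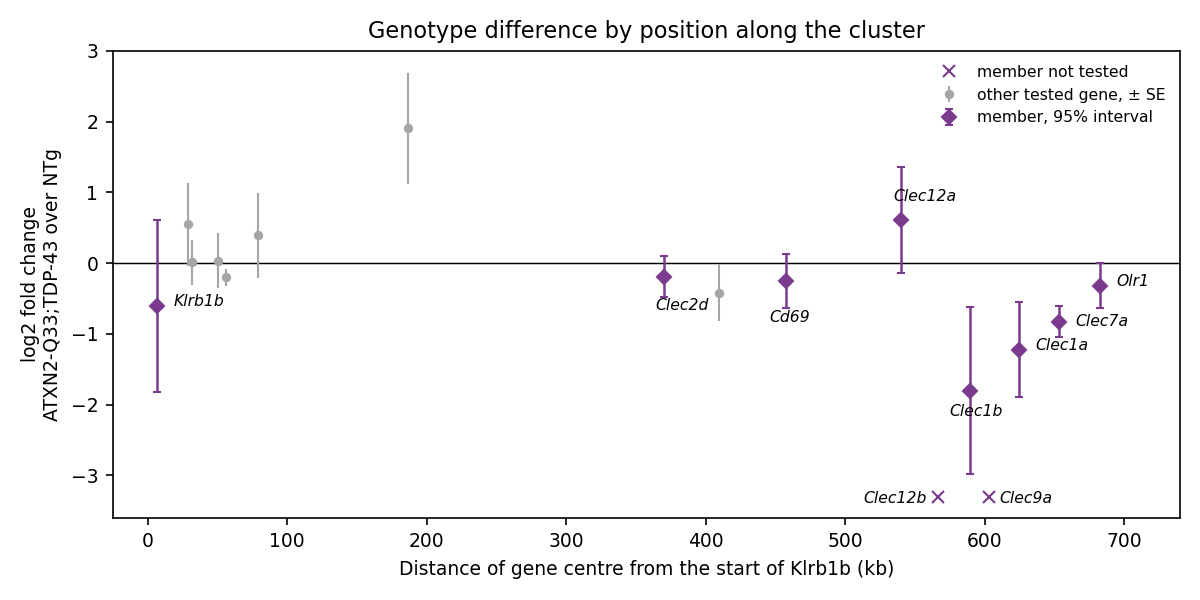
Log2 fold change (ATXN2-Q33;TDP-43 over NTg) against distance of the gene's centre from the start of Klrb1b in kb; diamonds are the tested members with 95% intervals, grey points the other tested genes of the span with SE, and crosses the members not tested, placed at the bottom with no value. The negative values of Clec1b, Clec1a and Clec7a lie next to each other, with Clec12a above 0 on one side and Olr1 nearer to 0 on the other.

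Fold changes were negative for 7 of the 8 tested members, and for 48.0% of all tested genes. Among the 7, the groups overlapped for Klrb1b, Clec2d and Cd69. Along the chromosome, the members whose groups did not overlap were next to each other. Clec1b, Clec9a, Clec1a, Clec7a and Olr1 are consecutive members, and for each of them all double mutant libraries were below all NTg libraries, with narrow gaps for Clec9a and Olr1. This run is a description: Clec9a was not tested, Clec1b passed the filter through NTg, and Clec1b and Clec9a share exonic bases. By edgeR's quasi-likelihood test over all genes with Benjamini-Hochberg adjustment, 0 of the 8 tested members passed an adjusted p of 0.05, as did 0 of 16248 genes (0%). In this edgeR fit an unadjusted p under 0.05 was reached by 4 members (Clec7a, Clec1a, Clec1b and Olr1) and by 2.26% of all tested genes. All 4 were lower in the double mutants, the direction of 0.862% of tested genes at that threshold. Olr1 did not reach it with DESeq2 or limma's voom fit. DESeq2 called 1 member, Clec7a, and 0.0431% of the genes with an adjusted p, and limma's voom fit called 0 members and 0% of genes. With neighbouring library numbers as blocks, a pairing the labels do not give, edgeR called Clec7a and 0.437% of genes. In a chi-square comparison of counts, each library was closest to the library of the other genotype with the adjacent number (8.76 per degree of freedom for 7 and 8, 10.7 for 9 and 10, and 6.10 for 11 and 12). Of the 8 tested members, 4 were lower in the double mutants without overlap, where 3.58% of all tested genes were; 0 were higher without overlap, where 3.27% of genes were, and 6.85% were apart in either direction. Clec7a was chosen from this contrast and these shares are printed beside the counts without being read as a result.

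The span from Klrb1b to Olr1 holds 37 annotated genes, of which 27 are no members. Of these, 7 were tested and 12 had no count in any library. Their log2 fold changes ran from -0.42 to 1.90 with a median of 0.03, 5 positive and 2 negative, and 0 passed the test. The highest belonged to BC064078, a transcribed pseudogene between Klrb1b and Clec2d that is named here after its values were seen. It had 10, 1 and 4 counts in NTg and 13, 23 and 22 in the double mutants (log2 fold change 1.90, SE 0.78). It reached the filter's minimum in 3 double mutant libraries and 1 NTg library, so it was tested through the group where it was high. None of the 7 lies inside the compact group, so the neighbours there could be compared only among the lectins themselves.

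The share of each member in the cluster's RNA was also taken within libraries. Per length, Clec7a made up 52.5%, 59.0% and 54.4% of the members' summed level in NTg replicates 7, 9 and 11 and 44.8%, 49.7% and 40.4% in the double mutants, so the groups lay apart. Clec2d held 36.0%, 30.6% and 36.1% in NTg and 43.2%, 37.3% and 48.2% in the double mutants. The 9 members other than Clec7a summed to 55.2, 49.1 and 53.3 CPM per kb in NTg and to 47.2, 39.2 and 49.1 CPM per kb in the double mutants. In that sum the groups overlapped, since replicate 12 was level with NTg replicate 9.

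**Figure D3:**
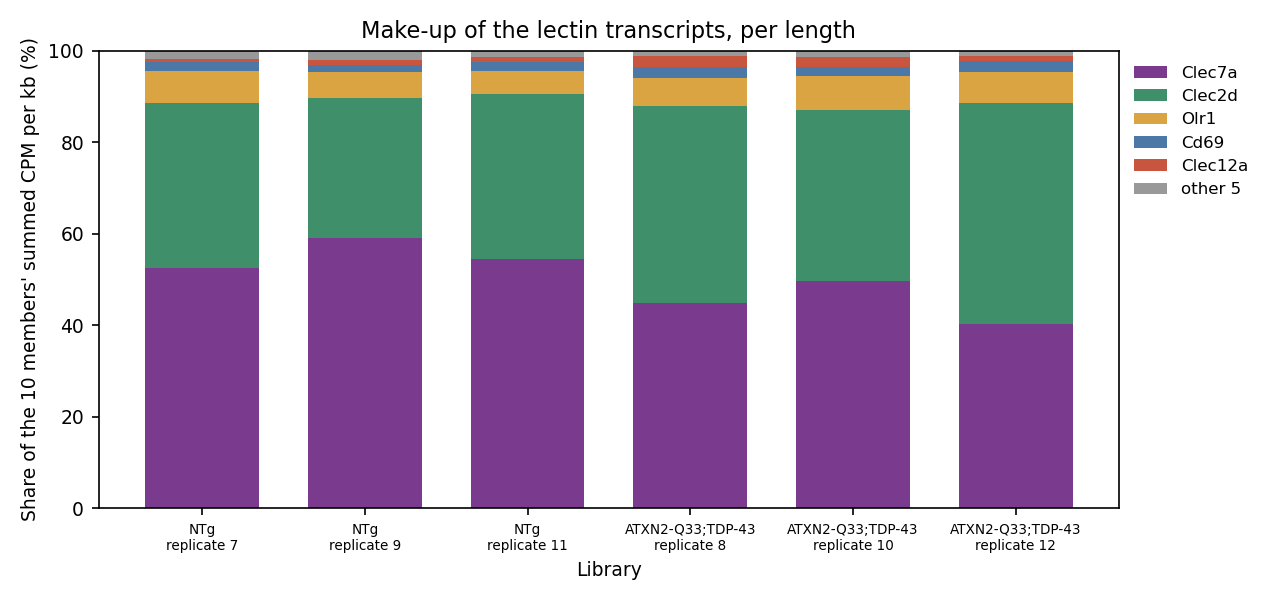
Share of the 10 members' summed CPM per kilobase held by each gene (y axis, percent) in each library (x axis), with the 5 lowest genes together in grey. Clec7a holds more than 52% in each NTg library and under 50% in each double mutant library, and Clec2d is the second largest share in 5 libraries and the largest in replicate 12.

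Genes of Dectin-1 signalling, its membrane partners included, were taken from a list of 35, all of which were tested. None passed the edgeR test, 11 had a positive and 24 a negative fold change, and the median log2 fold change was -0.05, against 0.01 over all tested genes. Syk, the kinase that Dectin-1 recruits, measured 282, 285 and 289 CPM in NTg, against 308, 294 and 318 CPM in the double mutants, and Card9, the adaptor below it, 72.2 ± 4.55 and 75.5 ± 5.72 CPM (SD, n = 3 each). The members with the smallest p were Tlr2, a receptor of bacterial lipoproteins that works together with Dectin-1 (log2 fold change -0.28, SE 0.09), the kinase Src (-0.13, SE 0.08) and the kinase Fyn (0.16, SE 0.12). Every double mutant library was below the NTg range for Tlr2 and Src and above it for Syk, while Card9, Fyn and the rest of the 35 overlapped. Of all tested genes 6.85% were apart in either direction, so these cases are not read as a result about the list.

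Of 18 genes that Dectin-1 signalling is known to induce, 17 were tested, 0 passed, 5 were positive and 12 negative, and the median was -0.13. Ifnb1, interferon beta, had 13, 25 and 19 counts in NTg and 4, 6 and 8 in the double mutants, apart and with a log2 fold change of -1.65 (SE 0.55); it reached the filter's minimum in 3 NTg libraries and 0 double mutant libraries, so it was tested through the group where it was high. The chemokine Ccl3 had -0.27 (SE 0.11) and the cytokine Tnf -0.24 (SE 0.11), both with overlapping libraries. Il1b, the inflammasome's cytokine, measured 475 ± 107 CPM in NTg against 437 ± 145 CPM in the double mutants (SD, n = 3 each).

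Ligands and signalling partners of the cluster made a list of 14, of which 11 were tested and 0 passed, with a median of -0.00061. Lgals9, galectin 9, a ligand described for Dectin-1, had a log2 fold change of -0.13 (SE 0.09), Anxa1, annexin A1, 1.30 (SE 1.10) and Vim, vimentin, 0.26 (SE 0.25). Anxa1 ran from 2.91 CPM in replicate 12 to 57.4 CPM in replicate 8 within the double mutants, and was highest and lowest in the same libraries as the neutrophil markers. S1pr1, the partner of Cd69, measured 34.9 ± 5.42 and 35.7 ± 6.36 CPM. Ptpn6 and Ptpn11, the phosphatases of Clec12a, had log2 fold changes of -0.00061 and 0.02.

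The Dectin-2 cluster and the killer cell lectin-like receptors, other lectin groups of chromosome 6, were read beside the members. The Dectin-2 cluster includes receptors of fungal mannans and mycobacterial lipids that signal through Fcer1g, though not all of its genes are of this kind. Of its 9 genes 6 were tested, 0 passed, 4 were positive and 2 negative, and the median was 0.15. Clec4a1 had -0.35 (SE 0.35), Clec4d 0.53 (SE 0.57) and Clec4e, or Mincle, 0.92 (SE 0.98). Clec4d and Clec4e were highest in replicates 8 and 10 and lowest in replicate 12, as the neutrophil marker sum was. The part of neutrophils in these values was not tested. Of 31 matched killer cell lectin-like and Clec2 genes, 2 were tested, Clec2i (0.39, SE 0.61) and Klra2 (0.31, SE 0.68), and 7 had no count in any library. The 31 genes together summed to between 2.86 and 8.75 CPM per library.

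**Figure D4:**
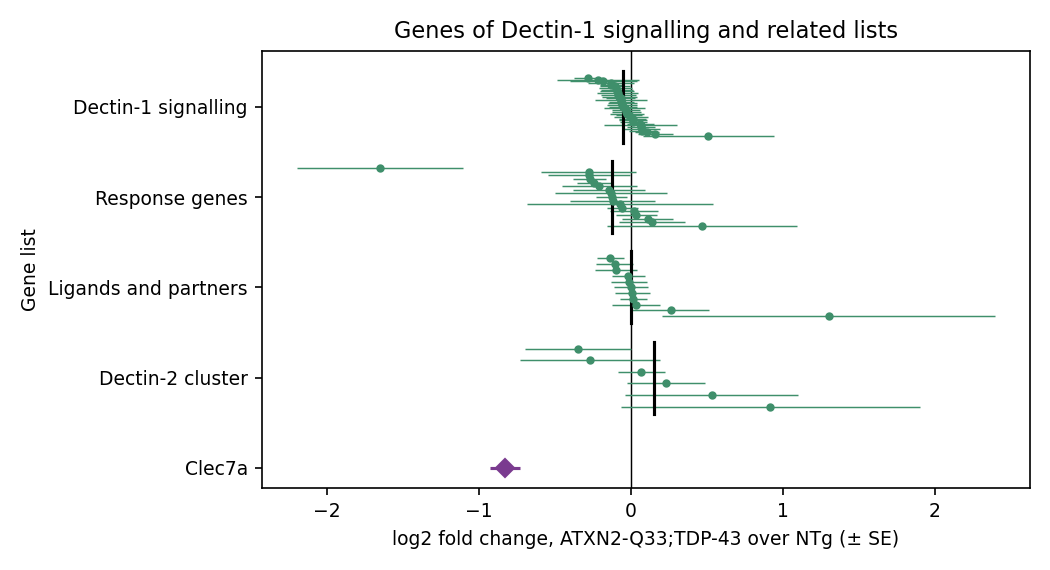
Log2 fold change (x axis, ATXN2-Q33;TDP-43 over NTg, with SE) of every tested gene in 4 lists, with the list's median as a vertical bar and Clec7a below. Most genes of the Dectin-1 signalling list lie close to 0 (median -0.05), and Clec7a lies at -0.83.

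The genes most like Clec7a over the 6 libraries were ranked by Pearson's correlation of log2 CPM among 7801 genes of at least 10 CPM. The highest were Zhx3 (r = 0.99, Spearman's rho 0.83), Src (0.97 and 0.77), Plau, the urokinase plasminogen activator (0.96 and 0.77), Phf23 (0.96 and 0.77) and Caprin2 (0.96 and 0.66). Such values describe 6 points that share their genotype groups and scaling, and all 5 genes had a negative fold change, from -0.43 for Plau to -0.13 for Src. Caprin2 alone of these lies on chromosome 6. The other members of at least 10 CPM had different leading genes: Rbm19, Fbxo34 and Dazap1 for Olr1 (r = 0.996, 0.986 and 0.978), Sall3, Tnfrsf1a and Man1b1 for Clec2d (0.996, 0.992 and 0.992), and Elac1, Lgals9 and Stx12 for Cd69 (0.995, 0.990 and 0.990). None of these lists held Clec7a or another member. With so few of the 7801 genes listed, and only members of at least 10 CPM able to enter, this absence does not tell whether the members vary together.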

How the data were processed

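Fragment counts per gene were used as deposited by the authors. Per the file headers, featureCounts 1.6.1 counted paired fragments over exons of GENCODE vM25 on mm10, with chimeric pairs left out, strand setting 2, and a fragment counted for each gene it overlaps. Trim Galore 0.4.1, FastQC, TopHat2 and DESeq2 are named in the submitters' processing notes without their settings. Another 6 columns of the table belong to samples not used here. Length is the deposited exon length in bases; symbols came from GENCODE vM21 (55141 of 55401 genes matched, and 1 listed symbol, Klrh1, did not).

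Library pairs differed beyond sampling noise (chi-square per degree of freedom 6.10 to 33.6). Genes were filtered with filterByExpr (minimum count 10, leaving 16248, with 8 of the 10 members) and fitted with edgeR 4.0.16 in R 4.3.3 (TMM, robust quasi-likelihood, genotype as the factor; threshold 0.05 after Benjamini-Hochberg adjustment). DESeq2 1.42.0 and limma 3.58.1 were alternatives. Standard errors came from the fold change and the F statistic. CPM used TMM-scaled library sizes; correlations used log2(CPM + 0.5). The members, lists and alternatives were chosen with earlier results of these data known. Named genes are all members, the members of each list past the threshold or else the 3 with the smallest p, and the genes most like a member; Syk, Card9, Il1b, S1pr1, Ptpn6, Ptpn11, Pdpn, Xcr1, Tubb1, Ppbp, Gp1bb, Itga2b, Pf4, Nr4a1 and BC064078 were named after their values were seen.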

Additional observations from a re-analysis of the deposited data

How the results depend on the processing

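The log2 fold change of Clec7a was negative in all 13 alternatives, from -0.87 to -0.76 over the 6 fits without 1 library and from -0.83 to -0.79 over the other 7. The count of called genes was 0 in the edgeR fit, 7 with DESeq2, 6 with no filter on low counts, 71 with a block for each pair of adjacent library numbers (7 with 8, 9 with 10, 11 with 12), and 0 to 2 without 1 library. Members called numbered 0 in the edgeR fit and 1, Clec7a, with DESeq2, with no filter and with that block; in the other alternatives, those without 1 library included, the number was 0. The block is a hint from the data and not a design: the groups share no replicate numbers, and the labels name no such pairs. With it the log2 fold change of Clec2d was -0.20 (SE 0.08), now at an unadjusted p under 0.05 but not called. Olr1, at an unadjusted p under 0.05 in the main edgeR fit, did not reach it with DESeq2 or limma's voom fit. Nor did Olr1 reach it with a filter of at least 1 CPM in 3 libraries, or without replicate 7, 8, 9 or 12. The causes of these changes were not tested. Clec1a, Clec1b, Olr1, Clec2d and Cd69 kept a negative and Clec12a a positive fold change in all 13. Klrb1b changed sign in 1. From counts not divided by length, the mean share of Clec7a was 62.7% in NTg and 52.7% in the double mutants, against 55.3% and 44.9% per length. The pathway lists had 0 called genes in all 13 alternatives. At this depth half-widths of the 95% interval, which is not adjusted for the number of genes, had a median of 0.49 on the log2 scale. Smaller differences were not detectable for a typical gene, and a call after adjustment needed larger ones. Clec7a, at -0.83 with an SE of 0.10, was not called by the edgeR fit.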
